A study of Drosophila melanogaster with 4 samples.

Results

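The regions described here are those enriched in monomethylation of lysine 4 of histone H3 (H3K4me1) near the centromere-side ends of the X, 2L, 3L and 3R sequences. These ends were chosen as the passage from gene-rich sequence into the sequence around the centromere. No annotation was used to place that passage on any arm. A region was taken by its midpoint. On FlyBase release 5 of the genome, it had to lie in X:19422828-22422827, 2L:20011545-23011544 or 3L:21543558-24543557, which are the last 3 Mb of these arms, or in 3R:1-2400000, the first 2.4 Mb of 3R. These ends of the assembled sequence face the centromere. The windows held 495 of the 7177 enriched regions of replicate 1, 667 of the 9903 of replicate 2 and 666 of the 9501 of a further list that the authors deposited for the series, the combined list. The rule uses position alone, although the windows were set with earlier results of these data known.

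The mark was mapped by chromatin immunoprecipitation and sequencing (ChIP-seq) in nuclei of Drosophila melanogaster at the third larval instar, the last larval stage before the pupa. The animals were wild type, of the strain Oregon-R, and received no treatment. There were 2 ChIP samples (replicates 1 and 2, the same antibody lot) and 2 input samples of chromatin without immunoprecipitation (replicates 1 and 2), each named in the labels as the background of 1 ChIP list and without a list of its own here. The labels name no dissected tissue, so a region may stand for any of the larval cell types or for a mixture of them. The labels do not say that the replicates came from separate cultures, so the spread between them may be technical.

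Chromosome arms of the fly end towards the centromere in pericentric heterochromatin, which is rich in satellite repeats and transposons, poor in genes, and marked by methylation of lysine 9 of histone H3 and by the protein HP1. A gene moved next to it can be silenced in some cells and not in others, which is known as position-effect variegation. Some genes, such as light on 2L, normally lie within it and are expressed there. H3K4me1 is written mainly by the methyltransferase Trithorax-related and is found at enhancers and beside active promoters, so it belongs to the active side of this border. No genome sequence or gene annotation of release 5 was used, so regions are named by position alone and no sequence is shown.

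The covered share is the percentage of bases that lie in an enriched region, and the score is the authors' own value for each region, on a scale that no file states. Scores are compared within a list only, also as the percentile of a region among all enriched regions of its list. Values are given per replicate, with the mean and SD over the 2. An exact two-sided permutation test over 2 paired samples cannot go below p = 0.5, so no test is given. The lists hold no read counts, depth is unknown, and sequence without an enriched region is called free of regions here, which does not mean free of the mark. Shares and free stretches count every base of the sequence. How much of it reads could be placed on is not known, and this part may differ between the windows and the rest of the arms.

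X, 2L and 3L were sparsely covered near the centromere-side ends of their sequences and 3R was not. The 3 Mb windows were covered to 18.7% ± 1.98 on X, 14.7% ± 1.02 on 2L and 12.0% ± 2.63 on 3L, against 34.0% ± 2.55, 27.4% ± 1.22 and 32.2% ± 1.49 over the rest of the same arms (SD, n = 2 each). On 3R the window was covered to 35.7% ± 3.15, against 32.0% ± 2.94 over the rest of the arm. In each replicate the window lay below the rest of its arm on X, 2L and 3L and above it on 3R, by 3.57 percentage points in replicate 1 and 3.86 in replicate 2.

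Within the windows, coverage of X, 2L and 3L was lower again in the last 1 Mb before the end of the sequence. That 1 Mb was covered to 9.60% and 10.7% on X in replicates 1 and 2, against 21.1% and 24.8% in the rest of the window. On 2L it was covered to 4.16% and 2.55%, against 21.0% and 19.7%. On 3L it was covered to 0.131% and 0%, against 15.1% and 20.8%. These differences averaged -12.9 ± 1.86 points on X, -17.0 ± 0.177 on 2L and -17.9 ± 4.09 on 3L (SD, n = 2), so each was larger than the spread between replicates. They were -7.40 points on X with a window of 2.4 Mb, and -9.66 on 2L and -11.5 on 3L for the higher-scoring 50% of each list. On 3R the last 1 Mb was covered to 34.8% and 40.7%, against 32.5% and 35.9% in the rest of its window, a difference of 3.57 ± 1.77 points. That difference depended on the border, being -0.14 points for the last 0.5 Mb and 19.0 points for the last 1.5 Mb. It was 1.36 ± 1.51 points for the higher-scoring 50% of each list and 2.04 ± 1.10 for regions met by the other replicate, that is, sharing at least 1 base with one of its regions.

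**Figure D1:**
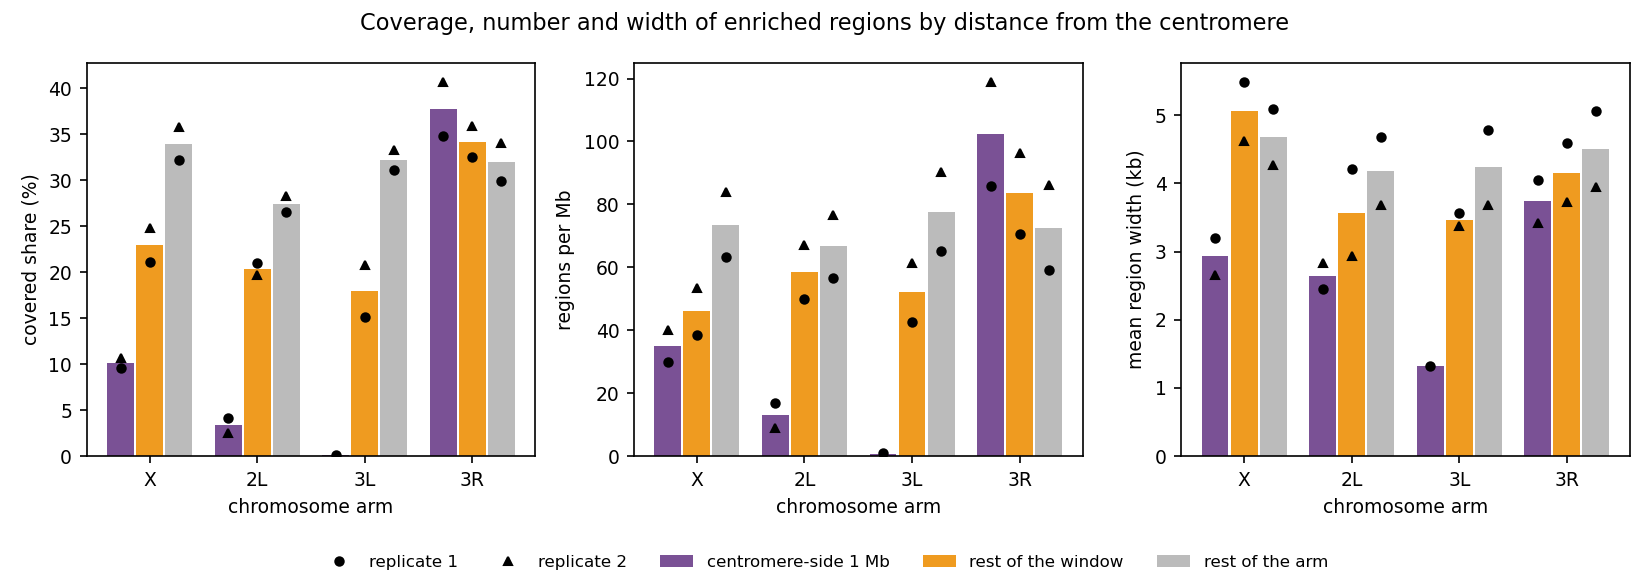
Covered share (%), number of enriched regions per Mb and mean region width (kb) in the centromere-side 1 Mb, the rest of the window and the rest of the arm, for X, 2L, 3L and 3R; bars are means of the replicates, circles replicate 1 and triangles replicate 2. The centromere-side 1 Mb is lowest on X, 2L and 3L in covered share (10.1%, 3.36% and 0.0657%) and highest on 3R (37.8%); the width bar of the centromere-side 1 Mb of 3L is 1 region of replicate 1.

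In 100 kb steps, the arms took different courses towards the centromere. Over the 114 steps of the windows, the highest covered share was 67.5% in replicate 1 and 86.3% in replicate 2, and 30 steps were at 0% in both. Of the 30 steps of 3L, 15 were at 0% in replicate 1 and 17 in replicate 2, where the rest of that arm had 11 and 7 of 215. On X they were 10 and 9 of 30, against 7 and 7 of 194 in the rest of the arm. On 2L they were 6 and 9 of 30, against 20 and 19 of 200. On 3R they were 2 of 24 in each replicate, against 16 of 255 in each, which is 8.33% against 6.27%. Between the replicates the steps ranked alike, with a Spearman rho of 0.95 over 114 steps. Neighbouring steps can share a region, so they are not independent points. Replicate 2 was higher in 54 steps and replicate 1 in 30.

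To place the change of level, each window was divided at the 100 kb border that left the smallest squared deviations from 1 mean on each side. Both replicates and the combined list gave the same border on every arm: 2600 kb from the end of the sequence on X, 1700 kb on 2L, 1600 kb on 3L and 1700 kb on 3R. The centromere side held the lower level on X, 2L and 3L and the higher level on 3R. The split accounted for 0.63 and 0.73 of the variation between steps on 3L in replicates 1 and 2, but for only 0.37 and 0.51 on X, 0.37 and 0.43 on 2L and 0.28 and 0.23 on 3R. The border was found from the coverage itself, so the levels beside it are a description.

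**Figure D2:**
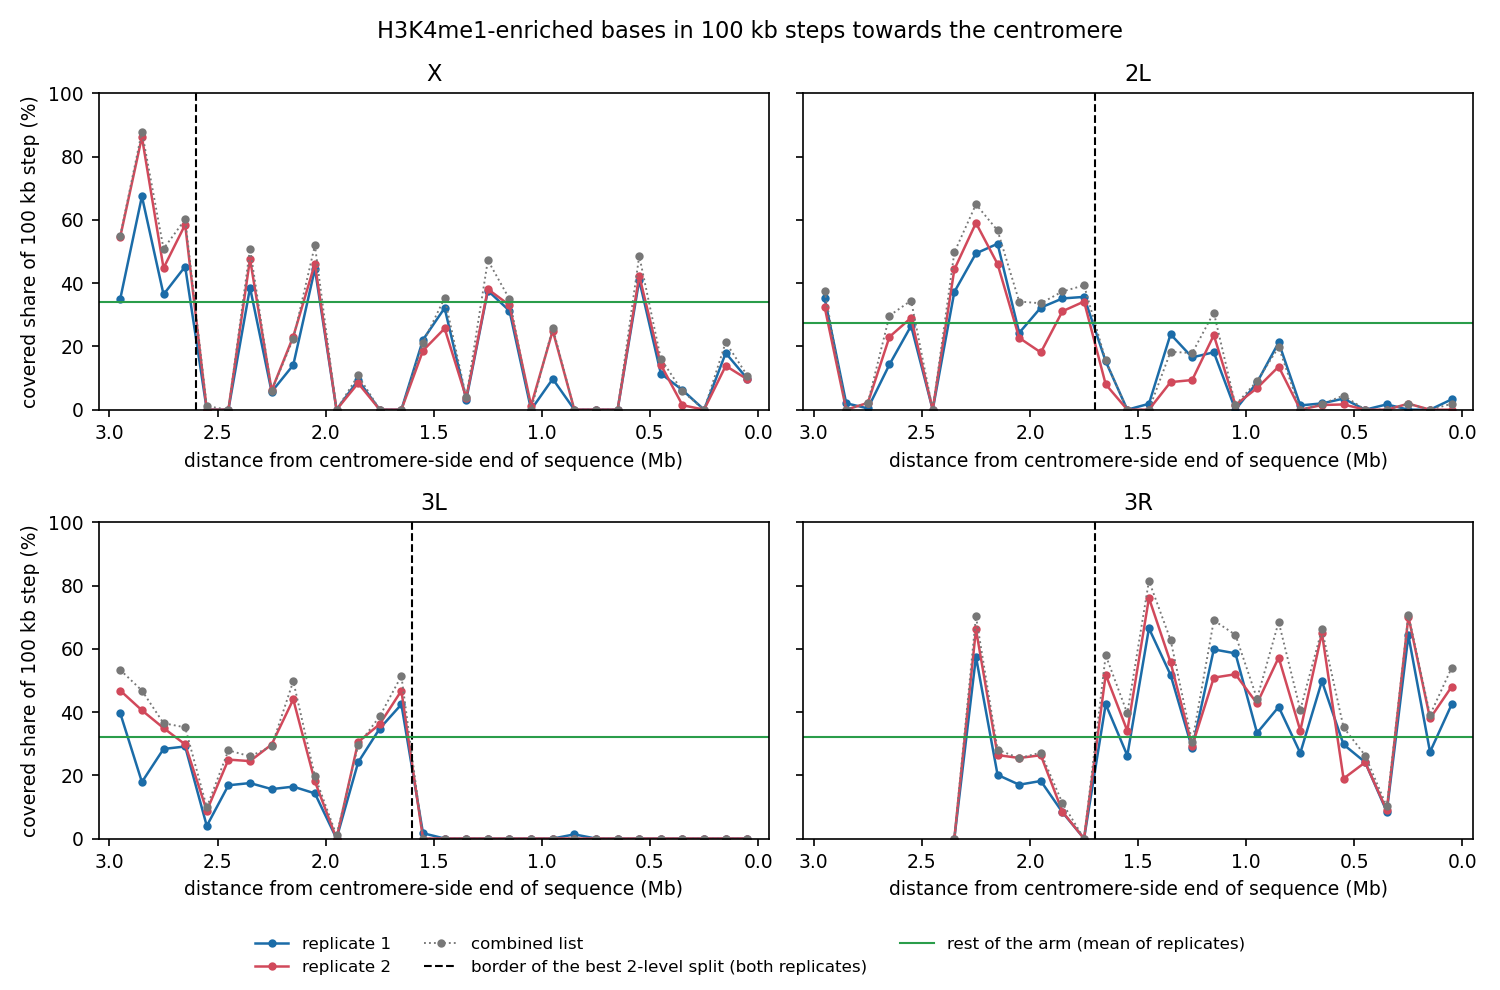
Covered share (%) of each 100 kb step against its distance from the centromere-side end of the sequence (Mb), with the arm at the left and the centromere at the right, for both replicates and the combined list; the dashed line is the border of the best split into 2 levels and the green line the mean share of the rest of the arm. Coverage of 3L ends at 1600 kb, that of 2L thins in stages, X is patchy to its end, and 3R averages 40.1% and 44.5% within 1700 kb of its end, with single steps as low as 8.48% and 8.92%.

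On 3L coverage ended within a single step in replicate 2 and the combined list, and all but ended there in replicate 1. The 3 last steps before the border were covered to 24.1%, 34.8% and 42.4% in replicate 1 and to 30.5%, 36.2% and 46.8% in replicate 2. The next step towards the centromere was covered to 1.69% in replicate 1 and 0% in replicate 2. Of the 16 steps beyond the border, replicate 1 had 14 at 0% and replicate 2 had all 16 at 0%, as had the combined list. The arm side of the border averaged 21.5% and 29.7%.

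A change of that height, 40.7 and 46.8 points between neighbouring steps, also occurred elsewhere on the arm: in the rest of 3L, 27 of 214 neighbouring pairs of steps in replicate 1 and 24 of 214 in replicate 2 differed by at least 40 points. What the rest of the arm did not have was a free stretch of such length. From the last enriched base of replicate 2 to the end of the sequence lay 1600.4 kb without a region (3L:22943168-24543557), where the longest such stretch in the rest of 3L measured 277.9 kb. In replicate 1 the stretch before the end measured 877.6 kb, against 365.4 kb.

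On the arm side of the border, the outermost regions of 3L were shared by the lists and unremarkable in width. In the combined list the nearest to the centromere was 3L:22940135-22943318, 3184 bases wide with a score of 0.85, at percentile 82.3 of its list. Replicate 1 covered 97.5% of it and replicate 2 covered 92.5%. Beside it lay 3L:22937557-22939981 (2425 bases, score 0.49) and 3L:22901508-22905349 (3842 bases, score 0.59), each met by both replicates. The 2 widest combined regions of the 3L window were 16906 bases (3L:22847911-22864816), within 100 kb of the border, and 16872 bases (3L:21873397-21890268). Replicate 1 held 3 regions at the first. The widest region of replicate 1, 16245 bases, lay between 2.5 and 3 Mb from the end, and that of replicate 2, 14374 bases, between 1.5 and 2 Mb. The highest score, 2.66 at 3L:22616279-22617280, belonged to a region of 1002 bases met by neither replicate. The next, 1.66 at 3L:22826141-22837894, was met by both.

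Beyond the border of 3L only replicate 1 held regions, and both were narrow. They were 3L:22990237-22991923 (1687 bases, score 0.41) and 3L:23664639-23665952 (1314 bases, score 1.26). The first had a low score for its list, at percentile 6.96, and the second a high one, at percentile 96.6. Replicate 2 and the combined list covered 0% of either.

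On 2L coverage thinned in stages. The arm side of the border averaged 26.6% and 26.3% in the replicates and peaked between 2100 and 2300 kb from the end, where steps reached 52.5% in replicate 1 and 59.1% in replicate 2. On the centromere side the average was 6.90% and 4.51%. Between 1100 and 1400 kb the 3 steps still held 23.9%, 16.5% and 18.2% in replicate 1 and 8.72%, 9.38% and 23.6% in replicate 2. The last step of some density lay between 800 and 900 kb, at 21.3% and 13.6%. From there to the end the steps stayed between 0% and 3.50% in replicate 1 and between 0% and 1.90% in replicate 2.

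In the last 0.8 Mb of 2L, replicate 1 had 7 regions, replicate 2 had 3 and the combined list had 6. They covered 1.47%, 0.629% and 1.25% of it. All were narrow, the widest measuring 1986 bases in replicate 1 and 1899 bases in replicate 2. Their scores were low, with a median percentile of 3.07 in replicate 1 and 6.72 in replicate 2. Only 2 regions of each replicate met the other: 2L:22361214-22363199 and 2L:22472270-22474045 of replicate 1, and 2L:22360943-22362416 and 2L:22472442-22474097 of replicate 2.

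The region of 2L nearest the centromere differed between the lists. In replicate 1 it was 2L:22959229-22960986 (1758 bases, score 0.22), of which replicate 2 covered 0%. In replicate 2 it was 2L:22734782-22736680 (1899 bases, score 0.25), of which replicate 1 covered 0%. The combined list held both, as 2L:22959232-22961079 with a score of 0.046 and 2L:22734764-22736632 with a score of 0.20, and 2L:22472307-22474134 (score 0.15) was the next. The widest region of the last 1 Mb was 2L:22017617-22024727, at 7111 bases, of which the replicates covered 80.0% and 96.2%. On the arm side the widest were 2L:20789054-20812014 (22961 bases) and 2L:21153787-21173046 (19260 bases), and the highest scores were 1.28 at 2L:20350482-20354017 and 1.14 at 2L:21307213-21310456.

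X stayed patchily covered to the end of its sequence. Its 4 steps farthest from the centromere averaged 46.1% in replicate 1 and 61.1% in replicate 2, and the 26 steps beyond averaged 12.9% and 13.8%. The rest of X was covered to 32.2% and 35.8%, so the 4 steps lay above the level of the arm. Within those 26, covered patches stood between free ones. Steps of 38.6% and 47.7% (2300 to 2400 kb), 44.6% and 46.2% (2000 to 2100 kb), 37.6% and 38.1% (1200 to 1300 kb) and 41.0% and 42.4% (500 to 600 kb) in replicates 1 and 2 alternated with 10 steps at 0% in replicate 1 and 9 in replicate 2. The dense patch at 500 to 600 kb followed 3 steps at 0% in both replicates.

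Free stretches of at least 100 kb took up more of the X window than of the rest of X. There were 8 in each replicate, holding 57.1% and 54.7% of the window, against 20.2% and 17.8% of the rest of the arm. The longest were X:20534685-20898062 in replicate 1, at 363.4 kb, and X:20535033-20900653 in replicate 2, at 365.6 kb, against 205.4 and 204.6 kb in the rest of X. On 2L such stretches took 39.6% and 47.8% of the window, against 26.0% and 22.5%, but the longest were shorter than in the rest of that arm, at 273.3 and 274.9 kb against 336.1 and 360.9 kb.

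The X sequence ended in a region found in both replicates. Replicate 1 held X:22409315-22417002 (7688 bases, score 0.72), and the nearest region of replicate 2 was X:22413425-22416879 (3455 bases, score 0.77). The combined list had X:22409938-22416979 there, 5848 bases from the end of the sequence. The next 2, X:22351565-22353309 (score 0.26) and X:22343479-22345437 (score 0.36), were each met by 1 replicate. The widest of the last 1 Mb was X:21927256-21936166, at 8911 bases. Far from the centromere lay the 2 widest combined regions of the window, X:19581225-19610732 (29508 bases) and X:19540747-19567637 (26891 bases). Nearer to it, between 1 and 1.5 Mb from the end, the widest measured 26823 bases in the combined list, 25452 in replicate 1 and 13833 in replicate 2. The highest scores were 1.86 at X:21966932-21967936, 1005 bases wide and met by neither replicate, and 1.44 at X:19574465-19581108, met by both.

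3R had no such fall: the first bases of its sequence were already densely covered. Its 17 steps nearest the centromere averaged 40.1% in replicate 1 and 44.5% in replicate 2, and none of them was at 0% in either. The 7 steps farther out averaged 17.3% and 21.8%. The rest of the arm, at 29.9% and 34.1%, lay between these levels. The median step of the window was 29.1% and 36.1%, against 28.0% and 30.2% in the rest of the arm. In a window of 6 Mb the border moved to 4600 kb in replicate 1 and 5200 kb in replicate 2, so on 3R its place depended on the length of the window. The last step before the end of the sequence was covered to 42.4% and 48.0% on 3R, where it was 9.78% and 9.61% on X, 3.26% and 0% on 2L and 0% in both replicates on 3L. The lowest of the 17 steps, between 300 and 400 kb, held 8.48% and 8.92%. The step beside it towards the centromere held 64.2% and 70.2%.

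Within the windows, enriched bases of 3R lay nearer to the centromere-side end of the sequence than those of the other arms. The first 1 Mb held 43.4% of the window's enriched bases in replicate 1 and 44.8% in replicate 2, where the last 1 Mb held 18.5% and 17.7% on X, 9.00% and 6.08% on 2L and 0.432% and 0% on 3L. The 3R window is shorter, so these shares are set against 2.4 Mb and not 3 Mb. The first 1 Mb of 3R was covered to 34.8% and 40.7%, against 33.5% and 37.9% over the whole window. Its share of the enriched bases was thus near that of an even spread. The files do not give how far each end lies from the centromere, so distances to it are not compared between arms. By density, 3R held 86 and 119 regions per Mb in its first 1 Mb, against 70.7 and 96.4 in the rest of its window and 59.0 and 86.3 in the rest of the arm. The longest free stretch of the 3R window was 3R:1688188-1822721 in replicate 1, at 134.5 kb, and 3R:1687146-1822627 in replicate 2, at 135.5 kb. Such stretches held 10.3% and 9.85% of it, against 17.6% and 17.7% of the rest of 3R.

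**Figure D3:**
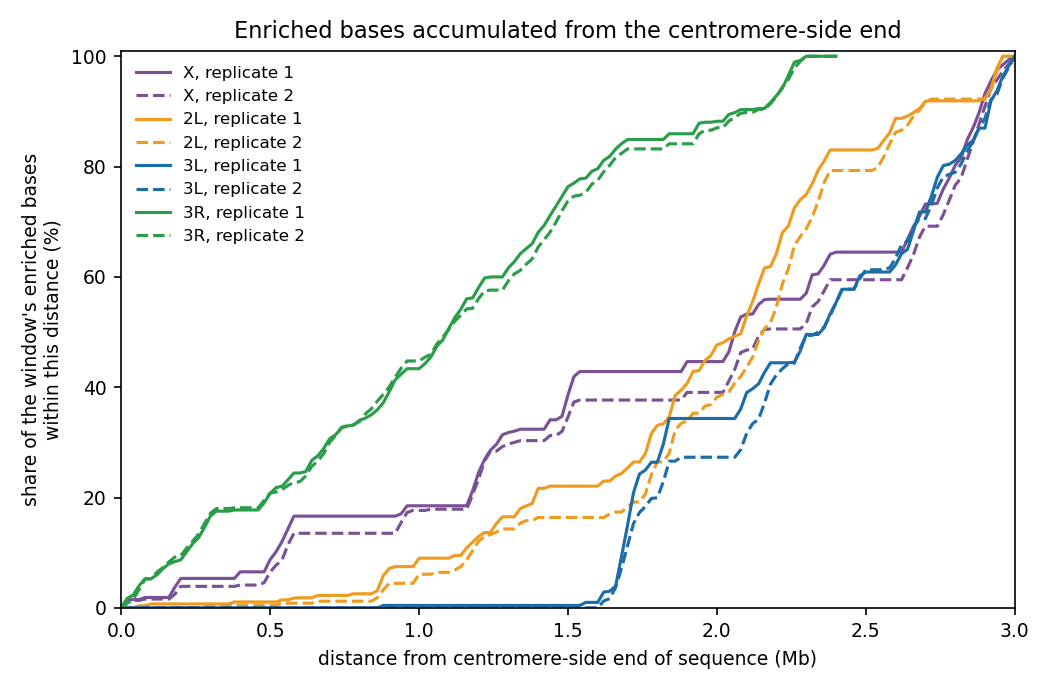
Share (%) of each window's enriched bases that lie within a given distance of the centromere-side end of the sequence (Mb), for both replicates (solid and dashed lines); 3R ends at 2.4 Mb. Within 1 Mb the curves reach 43.4% and 44.8% on 3R but at most 18.5% on X, 9.00% on 2L and 0.432% on 3L.

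The sequence of 3R began within 1 kb of an enriched region in both replicates. The nearest was 3R:768-14530 in replicate 1 (13763 bases, score 0.71 at percentile 53.1) and 3R:312-2822 in replicate 2 (2511 bases, score 0.98 at percentile 80.6), and replicate 2 held 3 regions within the span of the first. The combined list began with 3R:396-3398, 3R:3560-10552 and 3R:11054-13224, with scores of 0.71, 0.44 and 0.43. The widest of the first 1 Mb was 3R:670234-687125, at 16892 bases, close to the widest of the window, 3R:2243867-2262415 (18549 bases) and 3R:1435154-1452293 (17140 bases). The highest scores were 1.44 at 3R:1841648-1842689, 1042 bases wide and met by neither replicate, and 1.36 at 3R:1305746-1309991, met by both.

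Pooled over X, 2L and 3L, regions of the last 1 Mb were fewer and narrower on average, while their median score differed by less than the spread between replicates. Most regions of the last 1 Mb lay on X, 30 of 48 in replicate 1 and 40 of 49 in replicate 2. In the rest of the windows X held 77 of 262 and 107 of 364, so the pooled sides differ in their mix of arms. Together the last 1 Mb of X, 2L and 3L held 16.0 and 16.3 regions per Mb in replicates 1 and 2. The rest of the windows held 43.7 and 60.7, and the rest of the arms 61.8 and 83.8. Mean width was 2895 and 2694 bases there, against 4376 and 3582 bases in the rest of the windows. The number per Mb was thus 0.37 and 0.27 times, and the mean width 0.66 and 0.75 times, that of the rest of the windows. The arms differed in this. On X the number per Mb was 0.78 and 0.75 times that of the rest of the window (30 and 40, against 38.5 and 53.5), and the mean width was 3200 and 2663 bases, against 5493 and 4628 bases. On 2L the number was 0.34 and 0.13 times (17 and 9 per Mb, against 50 and 67), and the mean width 2450 and 2832 bases, against 4209 and 2937 bases.

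At the median the widths were closer. The median width was 2383 and 2183 bases, against 2855 and 2537.5 bases, a difference of -413.3 ± 83.1 bases (SD, n = 2). On 2L alone the replicates went opposite ways, with 1776 and 2515 bases, against 2973 and 2154 bases. After merging regions closer than 500 bases the pooled difference was -1618 bases in replicate 1 and 49.5 in replicate 2, so it no longer had 1 direction. It was -750 bases in the combined list and -1417.5 ± 587.6 bases for the higher-scoring 50%. Regions of at least 10 kb were missing there, with 0 of 48 and 0 of 49, which allow a share of up to 6.25% and 6.12%. In the rest of these windows they were 19 of 262 (7.25%) and 14 of 364 (3.85%). The share of replicate 2 is below its limit of 6.12%, so its count of 0 does not set the last 1 Mb apart. Over X, 2L, 2R, 3L, 3R and 4, 10.3% of regions of replicate 1 and 6.19% of replicate 2 were that wide. On 3R the first 1 Mb held 8 of 86 and 3 of 119 such regions, against 8 of 99 and 4 of 135.

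Scores gave no such common picture. On X, 2L and 3L together the median score of the last 1 Mb was 0.69 in replicate 1, against 0.67 in the rest of the windows, and 0.57 in replicate 2, against 0.61. The difference was -0.010 ± 0.048 (SD, n = 2), smaller than the spread between replicates, and its sign was not the same in the 2. X held most regions of the last 1 Mb but not of the rest of the windows, so this difference also holds the mix of arms. By arm the last 1 Mb of X had median score percentiles of 54.2 and 41.4, against 66.7 and 62.7 in the rest of the window, lower in both replicates. On 2L they were 17.6 and 74.9, against 42.8 and 33.4, so the replicates went opposite ways, over 17 and 9 regions. On 3R the median score was 0.65 and 0.64, against 0.69 and 0.61, and the median width 2791 and 2650 bases, against 3644 and 2336 bases. Both differences on 3R changed sign between the replicates.

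Whether regions were found in both replicates was compared by overlap, counting the regions met by the other replicate. The 2 shares count the same overlaps between the same lists, once from each side, so they are not independent values. Over X, 2L, 2R, 3L, 3R and 4, 90.2% of regions of replicate 1 and 75.3% of replicate 2 were met. In the windows of X, 2L and 3L, 262 of 310 were met in replicate 1 (84.5%, 95% Wilson interval 80.1 to 88.1) and 296 of 413 in replicate 2 (71.7%, interval 67.1 to 75.8). In their last 1 Mb alone, 32 of 48 (66.7%, interval 52.5 to 78.3) and 33 of 49 (67.3%, interval 53.4 to 78.8) were met, against 230 of 262 and 263 of 364 in the rest of the windows. The difference was -21.1 points counted from replicate 1 and -4.91 from replicate 2, with a mean of -13.0 and an SD of 11.5 between these 2 readings. In replicate 2 it was above 0 for the higher-scoring 50%, at 4.01, and after merging, at 2.01. On X the last 1 Mb had 24 of 30 (80%) and 25 of 40 (62.5%) met, against 94.8% and 78.5% in the rest of the window. That difference averaged -15.4 points, with an SD of 0.848 between the 2 readings, and was below 0 from either side. Since both readings rest on the same overlaps, this is not a repeated result. On 2L the last 1 Mb had 8 of 17 (47.1%) and 8 of 9 (88.9%) met, against 77.0% and 73.9% in the rest of the window, again with opposite directions. On 3R, 174 of 185 (94.1%) and 193 of 254 (76.0%) were met, near the shares of the whole lists.

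By bases, the shared part of the union of both replicates was 50.4% in the last 1 Mb of X and 46.1% in that of 2L, against 64.8% and 54.0% in the rest of their windows. On 3L it was 0%, since only replicate 1 held a region there. On 3R it was 61.4%, against 66.3%. Of the combined regions in the windows of X, 2L and 3L, 241 of 424 (56.8%) met both replicates, and on 3R 158 of 242 (65.3%), where 60.7% did over X, 2L, 2R, 3L, 3R and 4. How the combined list was made is not given, so it is not counted as a replicate.

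**Figure D4:**
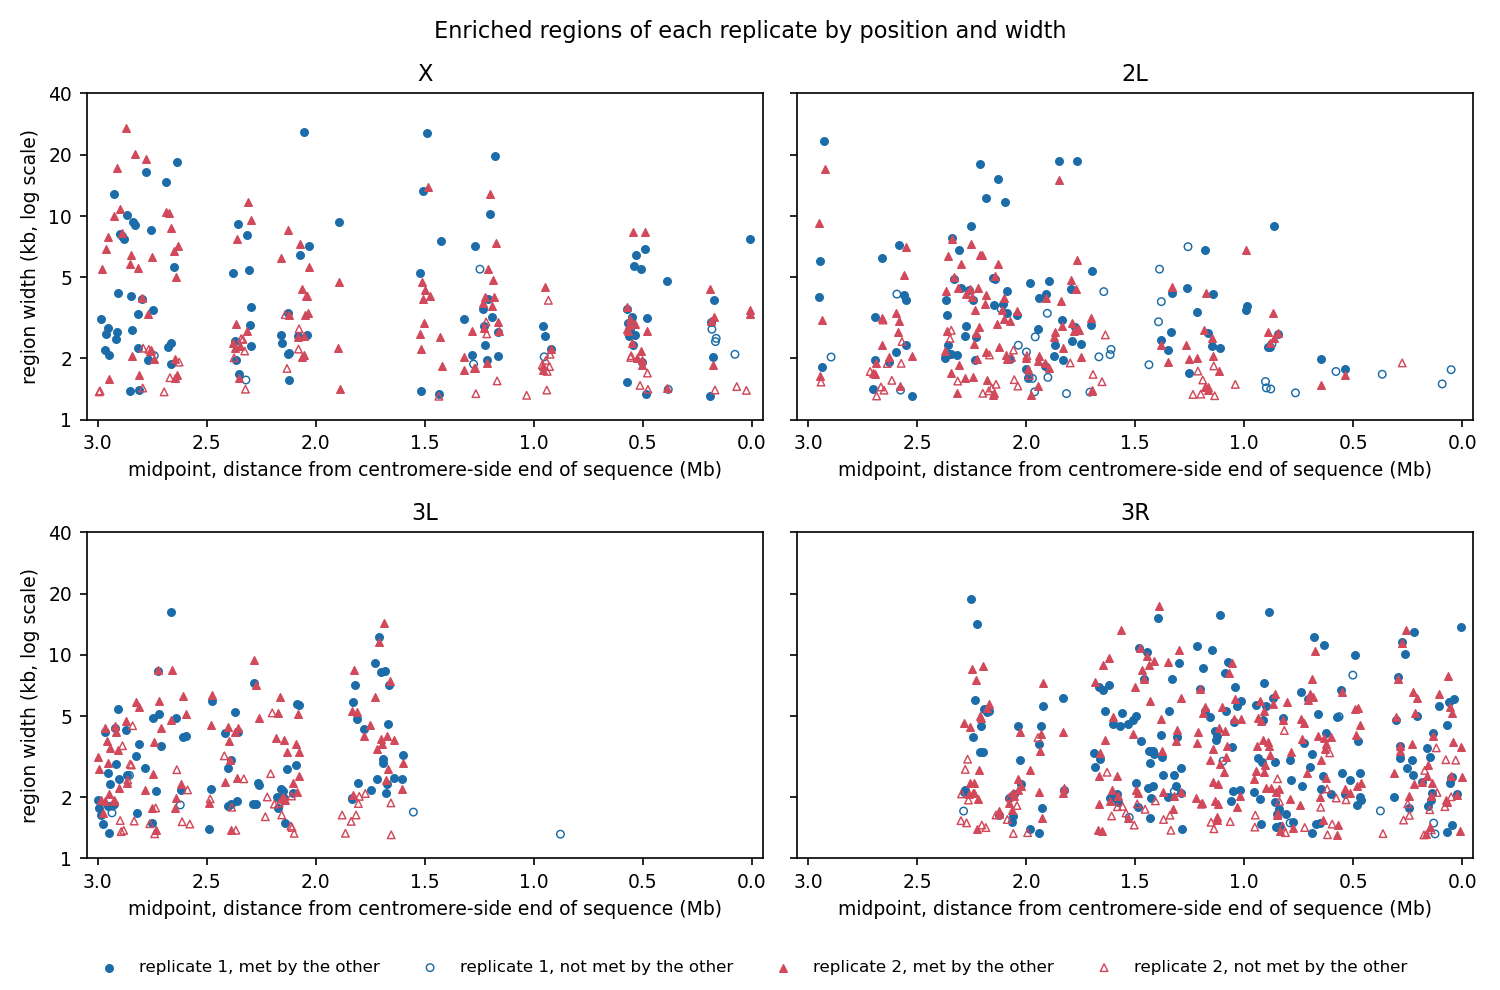
Width (kb, log scale) of every enriched region of the windows against the distance of its midpoint from the centromere-side end of the sequence (Mb), with circles for replicate 1 and triangles for replicate 2; filled symbols share at least 1 base with the other replicate. Beyond 1600 kb on 3L stand 2 open circles, the last 0.8 Mb of 2L holds 7 circles and 3 triangles, and in the first 1 Mb of 3R 80 of 86 circles and 89 of 119 triangles are filled.

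On X and 3L the arm-side edge of the window cut through a region of the combined list. Replicate 2 covered 100% of that region on either arm and replicate 1 covered 0%. There the combined regions just inside and just outside the edge were X:19429608-19430842 (1235 bases, score 0.43) against X:19420236-19424096 (3861 bases, 0.45), and 3L:21545201-21548255 (3055 bases, 0.30) against 3L:21542028-21543970 (1943 bases, 0.34). On 2L they were 2L:20058806-20068184 (9379 bases, 0.79) against 2L:19999639-20001047 (1409 bases, 0.11). On 3R they were 3R:2297641-2299174 (1534 bases, 0.25) against 3R:2468706-2470546 (1841 bases, 0.18).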

How the data were processed

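The submitters' processing notes name Bowtie 0.12.7. Per the file headers, coordinates are on FlyBase release 5. Per the labels, each input served as background for the ChIP list of its number. Not given in the sources used here are the region caller, its threshold and the making of the combined list. Each deposited region has a start, an end and 1 score from the authors, above 0 in enriched and below 0 in depleted regions. The score has no stated scale, and depth is unknown.

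Covered bases, region counts, widths and scores were computed in Python (3.11.15) with pandas 2.3.3 and NumPy 2.4.6. SciPy 1.17.1 gave the intervals and rank correlations, and Matplotlib 3.10.9 the plots. Depleted regions were set aside. Arm lengths came from the file headers. Steps were counted from the centromere-side end, with at least 2 on each side of a split. The split was tried on simulated windows with 1 clear change of level. Those are less patchy than the windows here, and the border of X lay outside their range, so the borders given were not tested by it. Wilson intervals and the limits for a count of 0 (3 counts) cover counting error only. The regions, borders and measures were chosen with earlier results of these data known. Regions named were, per arm in the combined list, the 2 widest, the 2 highest-scoring, the 3 nearest the end and the widest of the last 1 Mb, with the nearest of each replicate and the longest free stretches; the regions in the sparse ends of 2L and 3L were named after their values were seen. The RefSeq gene table at hand is of release 6 and was not used. Alternatives are given in the closing section.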

Additional observations from a re-analysis of the deposited data

Results flagged for a closer look

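The difference in covered share between the last 1 Mb and the rest of the window drew attention because both replicates were above 0 on 3R (mean 3.57 points) and both were below 0 on X (-12.9), 2L (-17.0) and 3L (-17.9). The difference between the arms was not tested.

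The sequences XHet, 2LHet, 3LHet and 3RHet, which hold heterochromatin of these arms that release 5 keeps apart from them, entered no comparison above. Replicate 1 had 11 enriched regions on them, replicate 2 had 9 and the combined list had 17. These covered 0.578%, 0.354% and 0.642% of 5.65 Mb. The short XHet was the most covered, to 7.34% and 5.94% of its 204.1 kb, and all 5 of its regions in each replicate met the other. The 2555 kb of 3LHet were covered to 0.477% and 0.236%, and 3 of 4 and 3 of 3 regions met the other. The 2518 kb of 3RHet were covered to 0.218% and 0.0726%, with 2 regions in replicate 1 and 1 in replicate 2, and none met the other. 2LHet held 0 regions in all lists. The files do not give how far these sequences lie from the ends of the arms.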

How the results depend on the processing

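A window of 6 Mb was chosen after seeing the data. Of 132 alternatives, 87 kept the sign of a value and moved it by no more than the SD between replicates. Another 34 kept the sign and moved it by more, and 11 reversed the sign, whatever the size of the move. The fall on X, 2L and 3L kept its direction in all alternatives run. With the border at 1.5 Mb it was -10.2 points on X, -18.0 on 2L and -23.9 on 3L, and 19.0 on 3R. With the border at 0.5 Mb it was -16.8 on 2L and -0.14 on 3R, a reversal. A 2.4 Mb window gave -7.40 on X and -19.8 on 2L. The higher-scoring 50% gave -9.66 on 2L, -11.5 on 3L and 1.36 on 3R. Merging gave -17.2 on 2L, the combined list -21.3 on 2L and -22.7 on 3L, and regions met by the other replicate -14.7 on 2L.

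The border of the split moved to 2000 kb on X in a 2.4 Mb window. With steps moved by 50 kb it was 2700 kb on X (mean of 2750 and 2650 in replicates 1 and 2), 1750 on 2L, 1650 on 3L and 1650 on 3R. It was 1750 kb on 2L with 50 kb steps, 1600 kb on 2L and 3R with 200 kb steps, 1600 kb on 3R for the higher-scoring 50% (mean of 1500 and 1700), and, in a 6 Mb window, 1650 kb on 2L (mean of 1600 and 1700) and 4900 kb on 3R (mean of 4600 and 5200).

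On X, 2L and 3L the width difference was -1417.5 bases for the higher-scoring 50%, -784.3 after merging (-1618 and 49.5 in replicates 1 and 2), -750 in the combined list and -312.5 for regions met by the other replicate. The score difference there reversed to 0.028 for regions met by the other replicate, and was -0.061 with the border at 0.5 Mb. On 3R the width difference (-269.5 bases) reversed to 23.5 in the combined list and 270.8 with the border at 1.5 Mb, and the score difference (-0.0073) to 0.0028 in the combined list, 0.040 with the border at 0.5 Mb and 0.094 at 1.5 Mb. The difference in the share met on 3R (-2.09 points) was -4.80 for the higher-scoring 50%, -0.60 after merging, -2.51 with the border at 0.5 Mb, -0.28 when 50% of the shorter region had to be shared, and reversed to 2.01 with the border at 1.5 Mb. The causes were not tested.

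Leaving out a replicate in turn reversed 3 differences. On X, 2L and 3L the score difference ran from -0.044 to 0.024. On 3R the width difference ran from -853 to 314 bases and the score difference from -0.043 to 0.029. No paired analysis was possible because the ChIP and input samples that share replicate numbers have no values to compare: the inputs have no list here.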

Other observations

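Some sites of the windows were called depleted in one list and enriched in another. Replicate 2 had 3 depleted regions in the windows, all on 2L, the combined list had 1, on 3L, and replicate 1 had 0. At 2L:22959295-22961086, 51.4 kb from the end of the sequence, replicate 2 gave a score of -0.0066, while replicate 1 had an enriched region over 94.4% of it and the combined list over 99.6%. At 2L:21344283-21346008 the score of replicate 2 was -0.0081, and enriched regions of replicate 1 and the combined list covered 87.0% and 100% of it. At 2L:22154307-22155816 it was -0.029, and they covered 0% and 77.8%. At 3L:21567602-21569316 the combined list gave -0.010, and enriched regions covered 85.7% in replicate 1 and 97.3% in replicate 2. These sites were chosen after their values were seen, and no cause was tested.

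The highest-scoring combined regions of the X, 3L and 3R windows measured 1005, 1002 and 1042 bases and were covered to 0% by either replicate. On 2L the highest-scoring region, of 3536 bases, was covered to 100% and 89.2%.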
